A study of Homo sapiens with 6 samples.

Results

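The genes described here are the ZNF zinc finger genes expressed in MUG-Chor1 cells, a line established from a sacrococcygeal chordoma. A gene belongs to the set when the platform annotation gives it, as the only symbol of a probe set, the letters ZNF with digits and at most 1 further letter, and when its mean over all 6 arrays lay above 7 on the log2 scale. For a gene with several such probe sets the brightest over all arrays was kept. Of 480 ZNF genes on the array, 145 met the limit and 335 did not. The whole array held 18404 genes with a probe set of their own, of which 7981 had a mean above 7 and were fitted together.

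Both groups were cells of this 1 line, with no treatment named for either, harvested with trypsin and picked under the microscope. Large cells were physaliferous, that is filled with vacuoles, and small cells had none. A pool was made of 20 such cells, whose RNA was amplified to cDNA and read on a Human Gene 1.0 ST array of Affymetrix, 1 array per pool. Large pools 2, 3 and 4 were set against small pools 5, 6 and 7, and values below are listed in that order. The methods speak of pools picked in quadruplicate, and no source used here says whether these were taken from separate cultures, so the tests read the spread between pools, which may be technical. Values are log2 expression from robust multi-array averaging, and each difference is large minus small on that scale, so that a difference of 1 is a doubling. In pools, fewer cells that express a gene and less RNA of it per cell cannot be told apart.

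C2H2 zinc finger proteins bind DNA through tandem fingers, each of which holds a zinc ion. In many ZNF proteins a KRAB domain precedes the fingers and recruits *TRIM28*, which brings a histone methyltransferase and heterochromatin protein to the bound site. A large share of these KRAB proteins bind and silence transposable elements. Their genes arose by repeated duplication and stand in long clusters on chromosome 19, so neighbouring genes often have similar sequences. Probes of 1 ZNF gene may therefore bind cDNA of a close relative, which was not tested. Other ZNF genes encode conserved transcription factors, RNA-binding proteins or spindle proteins without a KRAB domain.

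No array stood apart. Correlations between arrays over all probe sets lay between 0.896 and 0.929, and array medians were 6.64 to 6.68 in large and 6.73 to 6.76 in small pools. All 8 chordoma markers were above 7, among them *TBXT*, which encodes brachyury, at 10.33 and *KRT19* at 11.97. The summed level of these 8 markers, as their mean log2 expression, ran from 10.26 to 10.33 in large and from 10.20 to 10.36 in small pools. Of 7 leukocyte and endothelial markers only *CD68*, which other cells also express, passed 7, and *PTPRC*, which defines leukocytes, had a mean of 4.51. Of 8 fibroblast markers 3 passed 7, *THY1* highest at 9.91, whereas *DCN* and *FAP* had 4.57 and 5.34. The mean of the fibroblast list was 6.70 to 6.84 in large and 6.96 to 7.24 in small pools, without overlap. The mean of 10 proliferation genes was 6.73 to 6.80 in large pools 3 and 2, 8.43 in large pool 4 and 7.496 to 8.13 in the small pools. The part of either list in the differences of ZNF genes was not tested.

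Probe sets of ZNF genes were dim. The share above 7 was 30.2% for ZNF genes and 43.4% for all genes, and their median levels were 6.57 and 6.83. Only 7 ZNF genes, 1.46%, had a mean above 9, compared to 8.73% of all genes. Signals of different probe sets depend on the probes as well, so these shares describe signal and not transcript number. Just inside the limit lay *ZNF646* at 7.04, *ZNF683* at 7.03 and *ZNF181* at 7.004. Just outside lay *ZNF276* at 6.999, *ZNF521*, a regulator of progenitor cells, at 6.995 and *ZNF236* at 6.987. Of the 145 genes, 67 map to chromosome 19, 15 to chromosome 7, 9 to chromosome 1 and 7 to chromosome 16. RefSeq annotates 4 of them as pseudogenes, namely *ZNF542P*, *ZNF271P*, *ZNF252P* and *ZNF767P*.

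The brightest ZNF genes differed little between large and small pools. *ZNF257* had 10.82, 11.06 and 11.07 in the large pools and 10.47, 10.74 and 10.54 in the small pools, so every large pool was above every small pool by a narrow margin. *ZNF626* had 10.30, 11.14 and 11.22 in the large pools and 10.20, 10.39 and 11.29 in the small pools, with overlap and a difference of 0.26 (95% confidence interval -0.66 to 1.17). Both are KRAB zinc finger genes of the same part of chromosome 19. *ZNF711*, a partner of a histone demethylase and a gene of X-linked intellectual disability, had 10.09, 10.06 and 10.03 in the large pools and 10.08, 9.71 and 10.20 in the small pools, a difference of 0.068 (95% confidence interval -0.31 to 0.44) that turned to -0.022 with the trend of signal level removed. *ZNF207*, which encodes the spindle protein BuGZ, had 9.44, 10.02 and 9.85 in the large pools and 9.96, 9.42 and 9.74 in the small pools, a difference of 0.064 (95% confidence interval -0.45 to 0.58) that turned to -0.032 in the same setting. *ZNF385B* had 9.88, 9.62 and 9.79 in the large pools and 9.50, 9.29 and 9.76 in the small pools, again with overlap, and a difference of 0.25 (95% confidence interval -0.14 to 0.64). Of these 5, all but *ZNF257* had overlapping groups and an interval that included 0.

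At the study's limits, which ask for an adjusted p under 0.05 together with a log2 difference beyond 1 in size, limma with Benjamini-Hochberg adjustment called 0 of the 145 genes. Over all 7981 genes fitted it also called none, 0%. The study applied its limits after dropping unexpressed and unvarying genes, and it reported *ALG11*, *UCHL3*, *TMEM144* and *PPP2CB*. Here only the limit on the mean was applied, so the genes tested were not the same. The smallest adjusted p of a ZNF gene was 0.287 and the smallest of any gene was 0.082. Without adjustment, limma gave 13 ZNF genes a p under 0.05 that were higher in large pools, 8.97%, where 6.2% of all genes were. It gave 6 that were lower, 4.14%, where 5.8% of all genes were. Both shares were near those of all genes, and no list test was made. Without large pool 3 the counts were 7 and 2, that is 4.83% and 1.38% beside 4.82% and 3.01% of all genes. With both group means above 7 they were 6 and 3 of 126 ZNF genes, 4.76% and 2.38% beside 5.66% and 4.30% of 7117 genes, so both shares were then below those of all genes. Centred arrays gave 14 higher (9.3% of all genes) and 0 lower (2.04%). Removing the trend of signal level gave 13 higher (6.35% of all genes) and 2 lower (2.93%), and a further quantile normalization 13 higher (5.74%) and 4 lower (4.41%). A 3 against 3 comparison of single values cannot go below an exact permutation p of 0.1.

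The direction of the whole set shifted little. The median difference of the 145 genes was 0.019 and that of all fitted genes -0.046, and the gap between such medians turned to -0.040 in the 33 ZNF genes left by a filter on floor and variation. Values above 0 were found for 77 genes, 53.1%, beside 44.7% of all genes. With each array centred on its median, which moved the median of all genes to 0.038, the share above 0 was 63.4% beside 55.2%. It was 55.2% beside 44.4% after a further quantile normalization and 62.8% beside 49.4% with the trend of signal level removed. Among the 145 genes 13 were without overlap higher, 8.97% beside 8.67% of all genes, and 17 without overlap lower, 11.7% beside 16.5%. Large differences were more often upward, since 7 genes were above 1, 4.83% beside 2.57% of all genes, and 1 was below -1, 0.69% beside 0.539%. Of the 7, *ZNF542P*, *ZNF527*, *ZNF766*, *ZNF717* and *ZNF737* had small-pool means of 6.65, 6.72, 6.55, 6.94 and 6.22, below the limit. With both group means above 7, 2 of 126 ZNF genes were above 1 and 0 below -1, beside 138 and 28 of 7117 genes. The limit on the mean bears on such counts, since 11 genes passed 7 in the mean of the large pools only, 8 in the mean of the small pools only and 126 in both, 86.9% beside 89.2% of all genes. The first is 7.59% beside 3.35% of all genes and the second 5.52% beside 7.48%.

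**Figure D1:**
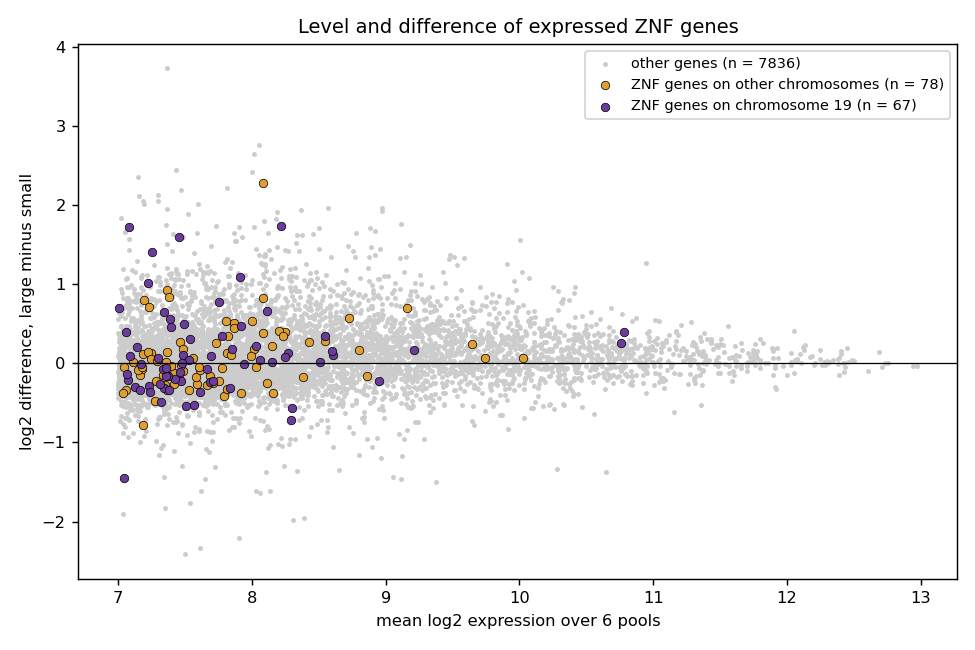
Log2 difference (large minus small, vertical axis) against mean log2 expression over 6 pools (horizontal axis) for 7981 genes, with 67 ZNF genes on chromosome 19 and 78 on other chromosomes coloured over the other 7836 genes in grey. ZNF genes lie mostly below a level of 9, within the spread of the other genes, with 7 above a difference of 1 and 1 below -1.

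The gene with the smallest p was *ZNF780B*, a KRAB zinc finger gene of chromosome 19. It had 8.84, 9.10 and 9.33 in the large pools and 7.23, 6.91 and 7.90 in the small pools. All large pools were above all small pools, and the means were 9.09 ± 0.24 (SD, n = 3) for large cells and 7.35 ± 0.51 (SD, n = 3) for small cells. The difference was 1.74 (standard error 0.28, 95% confidence interval 1.06 to 2.43), a linear ratio of 3.35, with an unadjusted limma p of 0.000744. Its next ZNF neighbour, *ZNF780A*, went the other way. *ZNF780A* had 8.28, 7.74 and 8.04 in the large pools and 8.24, 9.05 and 8.46 in the small pools, where large pool 2 was above small pool 5 and the groups overlapped. Its difference was -0.57 (95% confidence interval -1.18 to 0.05), with an unadjusted limma p of 0.0656, so its interval included 0.

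The 250 bases in front of the 2 genes are shown because close relatives with opposite differences had similar promoters. They come from RefSeq, build GRCh38.p14, where *ZNF780B* has chr19:40056232-40056481 and *ZNF780A* chr19:40090944-40091193, both on the minus strand. They align over 248 columns with 203 matching bases, an identity of 81.9%. Capitals mark unbroken runs of at least 8 bases that match between both, 120 bases in each.
ZNF780B: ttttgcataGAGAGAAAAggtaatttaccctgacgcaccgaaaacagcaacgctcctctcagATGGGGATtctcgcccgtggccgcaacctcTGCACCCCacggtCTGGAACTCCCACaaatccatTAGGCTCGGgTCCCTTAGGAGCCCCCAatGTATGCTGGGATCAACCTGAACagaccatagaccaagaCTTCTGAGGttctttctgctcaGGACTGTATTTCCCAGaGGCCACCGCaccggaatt
ZNF780A: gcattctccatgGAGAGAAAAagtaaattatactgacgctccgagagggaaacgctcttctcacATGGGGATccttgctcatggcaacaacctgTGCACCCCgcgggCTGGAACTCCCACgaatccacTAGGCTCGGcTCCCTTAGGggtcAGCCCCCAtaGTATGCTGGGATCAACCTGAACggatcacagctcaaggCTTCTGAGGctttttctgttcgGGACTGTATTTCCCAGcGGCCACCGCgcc
Capitals are fewest in the left part of both windows, the part farthest from the start of the gene.

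The next genes also had every large pool above every small pool. *ZNF195*, a KRAB zinc finger gene of chromosome 11, had 7.79, 7.83 and 7.87 in the large pools and 7.16, 6.86 and 6.68 in the small pools. The large pools hardly differed from each other, all small pools were below them, and the difference was 0.93 (standard error 0.15, 95% confidence interval 0.56 to 1.29). *ZNF542P* had 8.15, 8.47 and 8.12 in the large pools and 5.87, 6.76 and 7.33 in the small pools, with a wide spread among small pools and a difference of 1.59 (95% confidence interval 0.70 to 2.49). It is annotated as a pseudogene, so its probe set reads a transcript that RefSeq does not take for protein-coding. *ZNF527*, a KRAB gene of chromosome 19, had 7.45, 7.41 and 8.32 in the large pools and 6.65, 7.11 and 6.38 in the small pools, large pool 4 standing above the other large pools, and a difference of 1.01 (95% confidence interval 0.25 to 1.77). *ZNF91*, which represses SVA and other retrotransposons in primate cells, had 8.25, 8.41 and 8.70 in the large pools and 7.39, 6.63 and 8.07 in the small pools. All large pools were above small pool 7, the highest small pool, and the difference was 1.09 (95% confidence interval 0.20 to 1.99). The small-pool means of *ZNF195*, *ZNF542P* and *ZNF527* were 6.90, 6.65 and 6.72, so these genes passed the limit of 7 through their large pools. In *ZNF542P*, *ZNF527* and *ZNF91* 2 of 3 small pools lay above 6.64, the floor of log2(100) used in the filter on floor and variation.

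Among the genes at an unadjusted p under 0.05, smaller differences without overlap were found for *ZNF451*, *ZNF644*, *ZNF461*, *ZNF224* and *ZNF257*. *ZNF451*, a SUMO ligase that takes part in the repair of topoisomerase damage, had 8.21, 7.57 and 7.63 in the large pools and 6.92, 7.30 and 6.67 in the small pools, a difference of 0.84 (95% confidence interval 0.25 to 1.43). *ZNF644*, which binds the histone methyltransferases G9a and GLP, had 8.93, 9.22 and 8.89 in the large pools and 8.15, 8.46 and 8.69 in the small pools, a difference of 0.58 (95% confidence interval 0.13 to 1.02). In both, the lowest large pool was above the highest small pool by a small margin. *ZNF461*, another KRAB gene of chromosome 19, had 8.39, 7.96 and 8.06 in the large pools and 6.88, 7.53 and 7.68 in the small pools, a difference of 0.77 (95% confidence interval 0.18 to 1.37). *ZNF224*, a KRAB repressor and partner of the Wilms tumor protein, had 8.76, 8.15 and 8.41 in the large pools and 8.04, 7.45 and 7.86 in the small pools, a difference of 0.66 (95% confidence interval 0.12 to 1.202). The narrowest spread was that of *ZNF257*, given above, with a difference of 0.40 (95% confidence interval 0.073 to 0.72).

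The remaining 3 of the 13 genes are named here to complete that count. *ZNF766* had 7.03, 8.71 and 8.14 in the large pools and 5.90, 6.97 and 6.79 in the small pools, no overlap although large pool 2 and small pool 6 were nearly level, and a difference of 1.41 (95% confidence interval 0.21 to 2.60). *ZNF717* had the largest difference of all 145 genes, 2.28 (95% confidence interval 0.13 to 4.44), and also one of the widest spreads, with 10.08, 8.51 and 9.08 in the large pools and 6.32, 8.86 and 5.63 in the small pools. Small pool 6 was above large pool 3, so its groups overlapped. The pseudogene *ZNF271P* had 7.54, 7.83 and 7.40 in the large pools and 6.47, 7.52 and 6.39 in the small pools, where small pool 6 was above large pool 4, and a difference of 0.80 (95% confidence interval 0.0053 to 1.59). *ZNF717* and *ZNF271P* each had 1 small pool above the floor of 6.64. The size of either difference is therefore uncertain. The small-pool means of *ZNF451*, *ZNF766*, *ZNF717* and *ZNF271P* were 6.96, 6.55, 6.94 and 6.79, so these passed the limit of 7 through their large pools. Adjusted limma p over all 13 genes ran from 0.287 to 0.414.

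Over the 6 arrays the genes most like *ZNF780B* were *ZNF91* with a Pearson correlation of 0.94, *ZNF542P* with 0.90 and *ZNF644* with 0.87. These correlations span both groups, so they include the difference between large and small pools for which *ZNF780B* was picked, and they are given as a description.

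The 6 genes lower in large pools at an unadjusted p under 0.05 had small differences and little spread. *ZNF579* had 7.20, 7.12 and 7.23 in the large pools and 7.54, 7.51 and 7.42 in the small pools, without overlap, a difference of -0.31 (95% confidence interval -0.56 to -0.051). *ZNF787* had 6.97, 6.86 and 7.08 in the large pools and 7.26, 7.25 and 7.31 in the small pools, without overlap, a difference of -0.30 (95% confidence interval -0.57 to -0.03). Both genes lie in the distal part of chromosome 19. *ZNF384*, a nuclear matrix protein known from fusion genes of leukemia, had 7.80, 7.48 and 7.47 in the large pools and 8.18, 7.86 and 7.95 in the small pools, where the highest large pool was below the lowest small pool by a narrow margin, and a difference of -0.41 (95% confidence interval -0.79 to -0.041). *ZNF205* had 7.74, 7.70 and 7.51 in the large pools and 7.89, 7.98 and 8.08 in the small pools, a difference of -0.33 (95% confidence interval -0.63 to -0.031), without overlap. *ZNF703*, a corepressor amplified in luminal breast cancer, had 6.93, 6.68 and 7.07 in the large pools and 7.21, 7.22 and 7.27 in the small pools, a difference of -0.34 (95% confidence interval -0.67 to -0.011). These 5 groups were separate, whereas *ZNF683* overlapped slightly. *ZNF683* encodes HOBIT, a regulator of tissue-resident lymphocytes, and had 6.79, 6.77 and 6.98 in the large pools and 7.37, 6.97 and 7.31 in the small pools, a difference of -0.37 (95% confidence interval -0.74 to -0.0041) at a mean just above the limit. With each array centred on its median, 0 of these 6 genes kept an unadjusted limma p under 0.05. The large-pool means of *ZNF787*, *ZNF703* and *ZNF683* were 6.97, 6.89 and 6.85, so these genes passed the limit of 7 through their small pools.

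The next genes by p in this direction, all with an interval that included 0, were *ZNF385D* with -0.37, *ZNF654* with -0.47 and *ZNF513*, a gene of inherited retinal dystrophy, with -0.27. The lowest difference of the set belonged to *ZNF841*, a KRAB gene of chromosome 19, which had 5.64, 8.28 and 5.04 in the large pools and 7.48, 6.67 and 9.16 in the small pools. Large pools 2 and 4 were below every small pool, while large pool 3 was above 2 of them, and the difference of -1.45 (95% confidence interval -3.90 to 1.00) had an unadjusted limma p of 0.199. It was named after its values were seen.

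**Figure D2:**
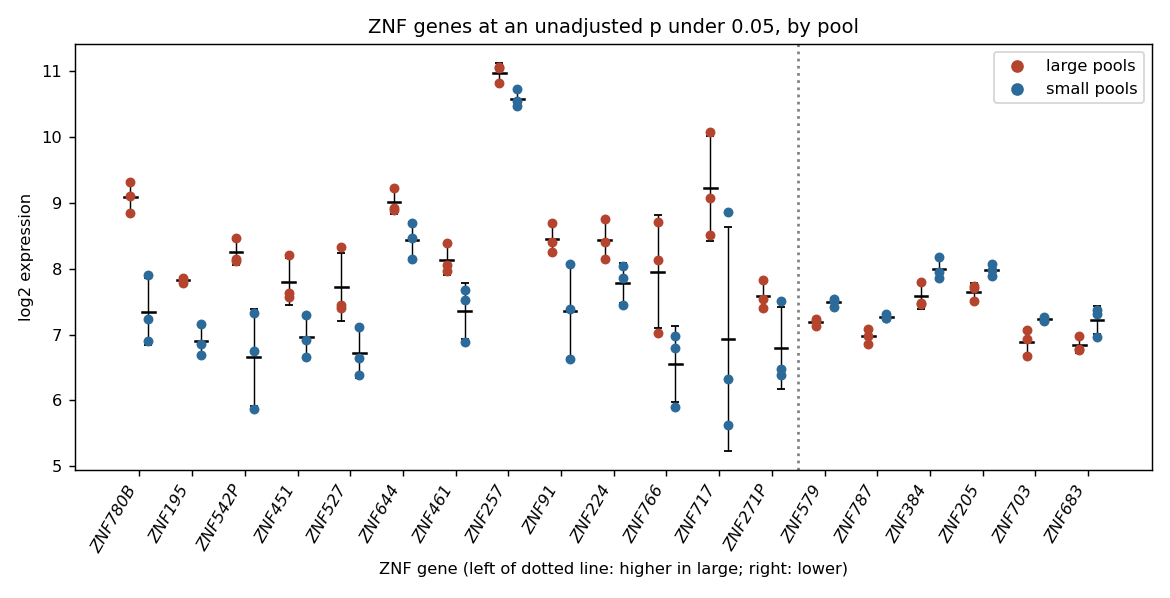
Log2 expression (vertical axis) in 3 large pools (red) and 3 small pools (blue) of the 19 ZNF genes with an unadjusted limma p under 0.05, ordered by p within direction, with the 13 genes higher in large pools left of the dotted line and the 6 lower genes right of it. Horizontal bars are means and vertical bars are 1 SD of 3 pools; differences on the left are larger and so is the spread of the small pools.

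Grouped by function, the genes of transposon and heterochromatin control were few. Of 7 listed, 3 were above 7 and all 3 had positive differences, with a median of 0.58 beside -0.046 for all fitted genes. They were *ZNF91* and *ZNF644*, given above, and *ZNF93*, a repressor of LINE-1 elements, with 6.74, 7.01 and 7.65 in the large pools and 7.37, 7.15 and 6.62 in the small pools and a difference of 0.088 (95% confidence interval -0.64 to 0.82) that lay between -0.17 and 0.28 when single pools were left out. The listed genes below the limit were divided. *ZNF274*, with every large pool below every small pool, and *ZNF445* had lower values in large pools, by -0.40 and -0.044. *ZNF10* and *ZNF350* had higher values there, with small-pool means of 3.94 and 5.89.

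Of 16 transcription and chromatin regulators, 10 were above 7, of which 8 had lower and 2 higher values in large pools, with a median of -0.11. Only *ZNF384* and *ZNF703* among them had an unadjusted limma p under 0.05. *ZNF281*, a regulator of pluripotency and of the epithelial-mesenchymal transition, had a difference of -0.22 (95% confidence interval -0.58 to 0.13) and *ZNF410*, the dedicated activator of the remodeller gene *CHD4*, one of -0.17 (95% confidence interval -0.99 to 0.66). *ZNF143*, a promoter factor, had 0.14, *ZNF148* had -0.047, *ZNF24* had -0.12, *ZNF335* had -0.073 and *ZNF532* had -0.097. Centring the arrays or removing the trend of signal level turned the sign for *ZNF148*, *ZNF24*, *ZNF335* and *ZNF532*, all close to 0, and for *ZNF711*.

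Of 9 genes listed for RNA processing, translation and spindle function, 7 were above 7 and 6 of these had higher values in large pools, with a median of 0.12. The list includes *ZNF451*, described above as a SUMO ligase and not by any of these roles. Apart from *ZNF451*, none had an unadjusted limma p under 0.05. *ZNF622*, a factor of the large ribosomal subunit, had the next largest difference at 0.34 with a wide interval (95% confidence interval -1.41 to 2.10). *ZNF326*, part of a complex that couples transcription and splicing, had 0.18, *ZNF593*, another ribosome factor, 0.12, and *ZNF830*, a spliceosome protein, 0.11. *ZNF638*, an RNA-binding protein, was the only one below 0, with -0.16 (95% confidence interval -0.81 to 0.49).

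The partners through which KRAB proteins silence chromatin were also read. Of 21 listed, 15 were above 7, of which 5 had higher and 10 lower values in large pools, with a median of -0.084 beside -0.046 for all genes. *MPHOSPH8*, the chromodomain protein of the HUSH silencing complex, had 8.27, 8.71 and 9.19 in the large pools and 7.11, 7.80 and 7.499 in the small pools. The groups did not overlap and the difference was 1.25 (95% confidence interval 0.56 to 1.95), with an unadjusted limma p of 0.00448 and an adjusted p of 0.383. It was the only one of the 15 with an unadjusted p under 0.05. *DNMT1*, the maintenance DNA methyltransferase, had -0.30 (95% confidence interval -0.72 to 0.12) and *TRIM28*, the KRAB corepressor itself, had -0.22 (95% confidence interval -0.55 to 0.10). *PPHLN1*, also of HUSH, had -0.17 (95% confidence interval -0.45 to 0.11) and *CHD4* had 0.21 (95% confidence interval -0.16 to 0.59).

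ZNF genes of chromosome 19 were set beside the other genes of that chromosome. Of 67 ZNF genes there, 37 had higher values in large pools, 55.2%, with a median difference of 0.049. Of 501 other fitted genes of chromosome 19, 81 had, 16.2%, with a median of -0.18. An unadjusted limma p under 0.05 was found for 8 ZNF genes with higher and 2 with lower values, 11.9% and 2.99%. For the other genes of the chromosome it was found for 4 and 63, 0.80% and 12.6%, beside 6.2% and 5.8% of all fitted genes. The level limit bears on the ZNF counts. The higher genes *ZNF542P*, *ZNF527* and *ZNF766* passed 7 through their large pools, with small-pool means of 6.65, 6.72 and 6.55. The lower gene *ZNF787* passed 7 through its small pools, with a large-pool mean of 6.97. Median levels were alike, 7.49 and 7.45, but the median residual SD between pools of a group was 0.35 for ZNF genes and 0.15 for the others. For the 78 ZNF genes of other chromosomes the median was 0.016 and the median residual SD 0.23. These are counts of genes within the same 6 arrays, and the difference between the sets was not tested. On chromosome 16 all 7 ZNF genes had lower values in large pools, with a median of -0.17, beside -0.13 for 346 other genes there.

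Along chromosome 19, runs of neighbouring ZNF genes were read, a run being ZNF genes with at most 5 other genes between them. In the run from *ZNF566* to *ZNF573* all 4 expressed genes, *ZNF461*, *ZNF585B*, *ZNF527* and *ZNF570*, had higher values in large pools, with differences from 0.20 to 1.01 and a median of 0.50. From *ZNF766* to *ZNF702P* 5 of 6 did, with a median of 0.41, the exception being *ZNF83* at -0.075. *ZNF527* and *ZNF766*, each the highest of its run, passed the level limit through their large pools, with small-pool means of 6.72 and 6.55. The run from *ZNF628* to *ZNF580*, which holds *ZNF579*, had 5 of 5 genes with lower values, from -0.31 to -0.16, and a median of -0.22. From *ZNF264* to *ZNF8* 6 of 8 had lower values, with a median of -0.18. There *ZNF586* and *ZNF329* passed the limit through their small pools, with large-pool means of 6.99 and 6.998. Lower values were common on this chromosome, in 420 of its 501 other fitted genes, with a median of -0.18. Of all fitted genes 44.7% had higher values in large pools. Other runs were mixed, with higher values in 3 of 5 genes from *ZNF85* to *ZNF429* (median 0.11) and 4 of 6 from *ZNF283* to *ZNF180* (median 0.079). Within runs signs also differed, as for *ZNF780B* and *ZNF780A*, and for *ZNF224* with 0.66 and its neighbour *ZNF225* with -0.54 (95% confidence interval -1.50 to 0.42). Most genes of a long run could lie below the level limit, as of 25 ZNF genes from *ZNF566* to *ZNF573*, 24 were measured and 4 passed the level limit.

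**Figure D3:**
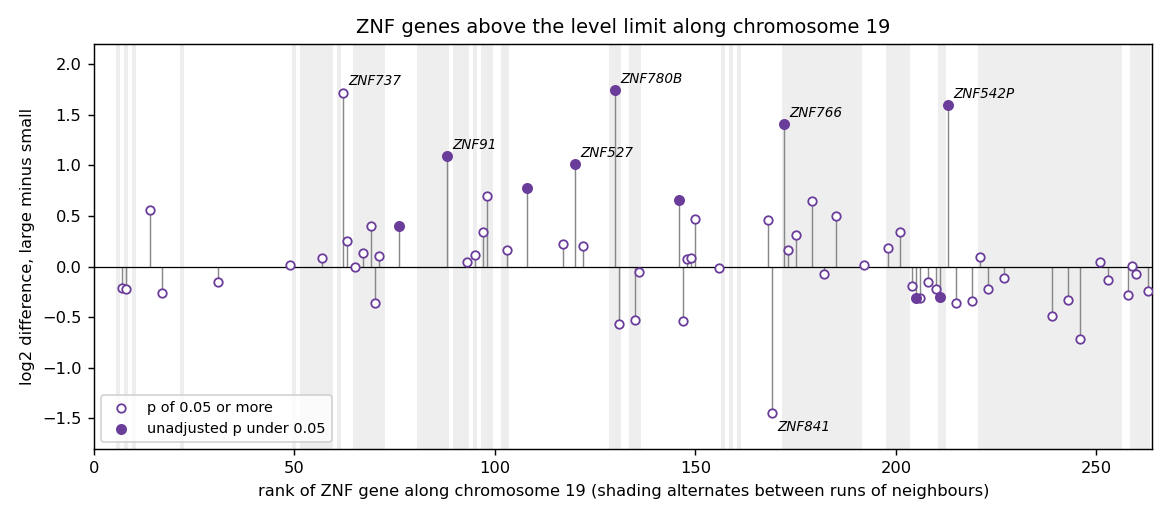
Log2 difference (large minus small, vertical axis) of the 67 expressed ZNF genes of chromosome 19 by their rank along the chromosome among all its ZNF genes (horizontal axis), with shading that alternates between runs of neighbours and filled points for an unadjusted limma p under 0.05. Values of 0.5 and more stand in several separate runs, and the run that holds *ZNF579* lies below 0.

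Promoters offered a grouping that the choice of genes did not use. RefSeq gave the 250 bases upstream for 125 of the 145 genes, 86.2%. Of 7750 pairs of these promoters, 83 aligned over at least 150 columns with an identity of 70% or more. They joined 25 genes into 6 groups, and this grouping was made after the differences were known. The largest had 13 genes, *ZNF107*, *ZNF138*, *ZNF195*, *ZNF254*, *ZNF257*, *ZNF493*, *ZNF626*, *ZNF708*, *ZNF714*, *ZNF737*, *ZNF85*, *ZNF91* and *ZNF93*, of which 10 lie on chromosome 19. Identity within its joined pairs ran from 70% to 86.3%.

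As an example from 2 chromosomes, the promoters of *ZNF195*, chr11:3379147-3379396, and *ZNF91*, chr19:23395472-23395721, both on the minus strand of GRCh38.p14, align over 236 columns with 178 matches, an identity of 75.4%. Capitals again mark matching runs of at least 8 bases.
ZNF195: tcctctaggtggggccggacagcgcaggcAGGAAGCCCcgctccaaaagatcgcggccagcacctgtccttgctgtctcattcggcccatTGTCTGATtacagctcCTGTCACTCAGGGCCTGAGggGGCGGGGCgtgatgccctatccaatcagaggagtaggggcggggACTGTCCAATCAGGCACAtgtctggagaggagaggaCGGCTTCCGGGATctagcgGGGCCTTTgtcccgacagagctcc
ZNF91: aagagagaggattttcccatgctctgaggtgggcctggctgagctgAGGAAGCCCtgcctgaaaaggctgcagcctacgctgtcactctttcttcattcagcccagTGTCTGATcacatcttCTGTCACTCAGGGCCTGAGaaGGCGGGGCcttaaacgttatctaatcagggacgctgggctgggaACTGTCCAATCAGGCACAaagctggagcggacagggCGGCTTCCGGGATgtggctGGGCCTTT
Here too capitals are fewest in the left part of both windows, which holds 1 short run.

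Of these 13 genes 12 had higher values in large pools, beside 44.7% of all fitted genes, with a median of 0.26 beside -0.046. An unadjusted limma p under 0.05 was found for 3 of them, *ZNF195*, *ZNF257* and *ZNF91*, beside 6.2% of all genes in this direction. The small-pool means of *ZNF195*, *ZNF737* and *ZNF708* were 6.90, 6.22 and 6.86, so these genes passed the limit of 7 through their large pools. The dimmer probe sets of *ZNF257* and *ZNF138*, given below, had the opposite sign, whereas those of *ZNF493* and *ZNF626* did not. *ZNF85* had -0.0013, which was above 0 with arrays centred. *ZNF737* had the largest difference, 1.72, with 7.47, 7.47 and 8.89 in the large pools and 7.47, 4.68 and 6.52 in the small pools, where small pool 5 was level with large pools 2 and 3 to the second decimal and the interval included 0. Of its small pools 1 lay above the floor of 6.64. *ZNF107*, on chromosome 7, had 0.54 (95% confidence interval -0.15 to 1.22) and *ZNF708* 0.40 (95% confidence interval -0.22 to 1.02). The median level of the 13 genes, less that of all fitted genes, was -0.063, 0.62 and 0.25 in large pools 2, 3 and 4 and -0.045, -0.11 and 0.10 in small pools 5, 6 and 7. Large pool 2 was thus as low as the small pools, and without large pool 3 the median difference was 0.15 with 8 of 13 genes above 0. Without the 3 genes at an unadjusted p under 0.05 the median was 0.16, with *ZNF737* and *ZNF708* still included.

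Other promoter groups were small. *ZNF761*, *ZNF808*, *ZNF83* and *ZNF845* had a median difference of 0.27, with 3 of 4 above 0. *ZNF181* and *ZNF302* had 0.70 and 0.34, and *ZNF747* and *ZNF764* had -0.26 and -0.17. All intervals of these 8 genes included 0.

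**Figure D4:**
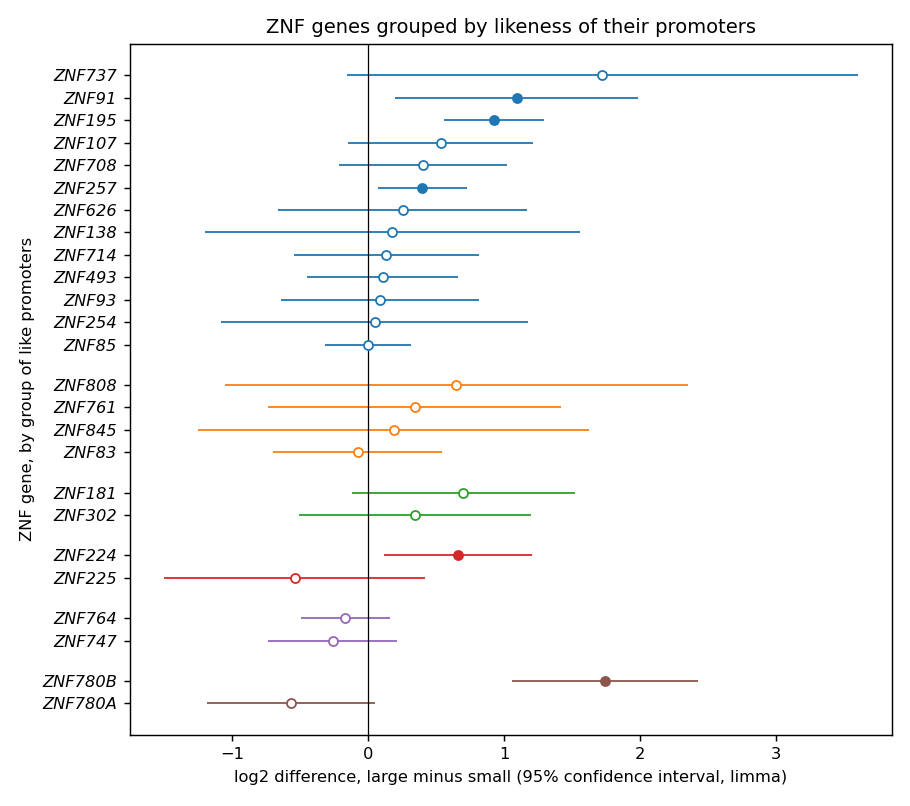
Log2 difference (large minus small, horizontal axis) with 95% confidence interval from limma for 25 ZNF genes in 6 groups of similar promoters, coloured by group, with filled points for an unadjusted p under 0.05. In the top group of 13 genes 12 points lie above 0 and most intervals include 0, and *ZNF780B* and *ZNF780A* at the bottom lie on opposite sides.

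Promoter composition and short motifs were counted in the same 250 bases. The median GC content was 62.8% for the 125 ZNF promoters and 64.8% for the 6403 promoters of fitted genes. Across genes, GC content and difference had a Pearson correlation of -0.16 over the 125 ZNF genes and -0.032 over 6278 other genes, a description of genes that share the same arrays. Motifs were searched as fixed letters on both strands, each on its own without removing overlaps. The NRF1 motif stood in 20 of the 125 ZNF promoters, 10.93% of those of fitted genes and 5.53% of all 27305 promoters in the table. The ETS letters CCGGAAGT stood in 12.8%, 7.72% and 3.64%. The SP and KLF letters GGGGCGGGG were rarer in ZNF promoters than in those of fitted genes, with 19.2%, 26.11% and 15.43%, and so were the letters TATAAA with 3.2%, 6.18% and 11.13%. The *ZNF143* motif stood in 3 of 125 ZNF promoters, 2.4%, beside 0.48% of fitted and 0.25% of all promoters. Of 11 promoters of genes higher at an unadjusted p, 3 held the NRF1 motif and 1 the ETS letters, counts too small to compare.

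Level and direction went together in the whole data. ZNF genes with a mean of 7 to 7.5 had a median difference of -0.052 (68 genes) beside -0.16 for 2861 other genes. From 7.5 to 8 the medians were -0.045 (39 genes) and -0.073, and from 8 to 9 they were 0.17 (31 genes, 23 of them above 0) and 0.090. Above 9 all 7 ZNF genes had values above 0, with a median of 0.25, beside 0.092 and 65.4% above 0 for 1600 other genes. With the trend of signal level removed the medians of the whole set and of all genes were 0.075 and -0.0031. In that setting the medians above 9 were 0.15 for ZNF genes and 0.0055 for other genes. *ZNF711* and *ZNF207*, both above 9, were then below 0, at -0.022 and -0.032. The related ZBTB, ZFP, ZSCAN and ZKSCAN zinc finger genes, chosen after the values were seen, numbered 26 above 7, of which 7 had values above 0, with a median of -0.13.

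For 7 of the 145 genes the array had 2 probe sets of their own. For *ZNF277* they disagreed. The brighter had 6.42, 7.08 and 6.89 in the large pools and 7.14, 7.28 and 8.29 in the small pools, a difference of -0.78, and the dimmer, with a mean of 6.70, had 7.68, 7.78 and 6.77 in the large pools and 5.92, 6.07 and 5.98 in the small pools, a difference of 1.42. Every large pool was below every small pool in the brighter probe set and above every small pool in the dimmer, so the direction of this gene depends on the probe set. For *ZNF626* both were higher in large pools, by 0.26 and 0.76. For *ZNF257* the dimmer probe set, with a mean of 4.67, had a difference of -0.33 beside 0.40 for the brighter, whose mean was 10.78. A gap of this size between probe sets of 1 gene leaves it uncertain which of them reads *ZNF257* alone. For *ZNF138* the brighter had a difference of 0.18 and the dimmer, with a mean of 5.54, one of -0.030.

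**Figure D5:**
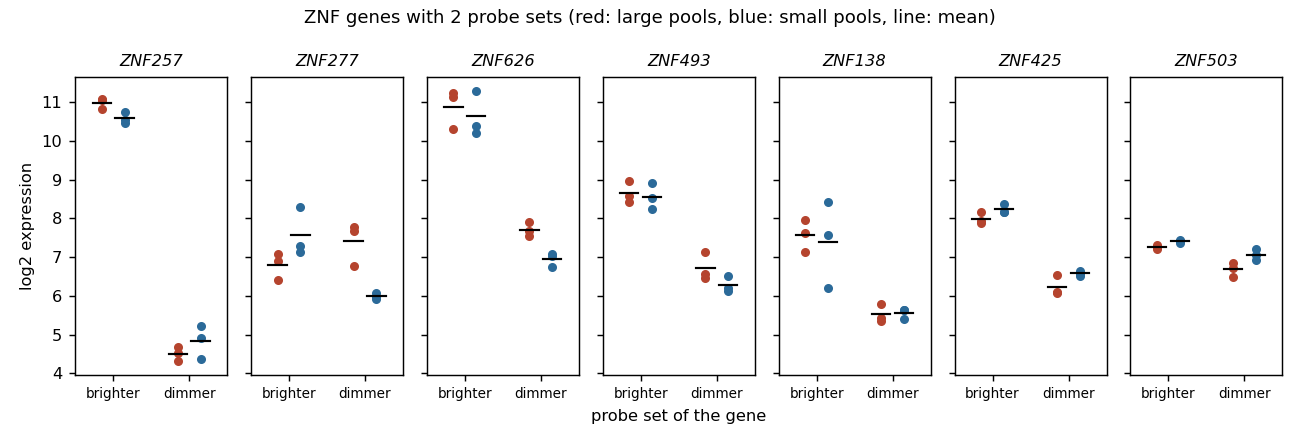
Log2 expression (vertical axis) of the brighter and the dimmer probe set of the 7 ZNF genes with 2, with large pools in red, small pools in blue and means as lines. The 2 probe sets of *ZNF277* point in opposite directions, as do those of *ZNF257* and *ZNF138* with smaller differences. Those of *ZNF257* differ by about 6 in level.

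Among ZNF genes below the limit of 7, which are not members of the set, *ZNF814* and *ZNF404* also had every large pool above every small pool. *ZNF814*, with a mean of 5.96, had 7.36, 6.79 and 8.80 in large and 4.44, 3.81 and 4.54 in small pools. *ZNF404*, with a mean of 6.68, had 8.06, 8.57 and 6.43 in large and 5.68, 5.79 and 5.55 in small pools. The small pools of both lay below 6.64, the floor of log2(100) used in the filter, so no size of difference is given. *ZNF404* was named after its values were seen.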

How the data were processed

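Amplified cDNA of 3 large and 3 small pools of 20 MUG-Chor1 cells each was measured on 6 Affymetrix Human Gene 1.0 ST arrays. Groups follow GEO's labels. The deposited values are log2 expression with a column for each array, which the authors made by robust multi-array averaging (background correction, quantile normalization over arrays, median polish). Per the methods the affy package was used, while Affymetrix Expression Console stands in the submitters' processing notes. The chip definition file and the build are both not given in the sources used here. No column was left unused (0).

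Of 32321 probe sets, 19158 had 1 symbol in the platform annotation, 1388 several and 11775 none. Among them 493 had 1 ZNF symbol, and 36 with several symbols, one of them ZNF, were left out. The brightest probe set of each gene was kept if its mean was above 7. Large minus small was tested over 7981 genes in R 4.3.3 with limma 3.58.1, with no covariate and Benjamini-Hochberg adjustment over all of them. On simulated data for this comparison, with 7981 genes, 75 of 100 changes of 1.5 and 95 of 100 changes of 3 were recovered, with 9 false calls. In the measured data *ZNF780B*, at 1.74, had an adjusted limma p of 0.287. The median residual SD was 0.30 for ZNF genes and 0.23 for all genes. The simulated counts therefore do not give the share of ZNF changes that could be found. The number of arrays limits the precision. Promoters, gene order and biotypes came from RefSeq GRCh38.p14, and promoters were aligned in Python 3.11.15 with Biopython 1.88. All 145 symbols matched there.

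The genes, lists and tests were chosen with earlier results of these data known. Named are the 10 genes with the smallest p in each direction, the 5 brightest, the 3 on either side of the limit, the members of 3 lists of ZNF roles, the 5 corepressors with the smallest p, the 3 genes most like the first, genes whose probe sets disagree and *ZNF814*; others were named after their values were seen. Alternatives covered scaling, level limits, a filter on variation, probe sets, the variance model, array weights and each pool left out. KRAB domains and finger numbers were not analysed here.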

Additional observations from a re-analysis of the deposited data

How the results depend on the processing

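The count of ZNF genes called at the adjusted limits was 0 in every alternative run, and with the filter on floor and variation 2 of all 2062 genes had an adjusted p under 0.05. Shares of ZNF genes beside those of all genes fitted stand in parentheses. The 13 genes higher in large pools at an unadjusted limma p under 0.05 became 26 of 258 ZNF genes with a mean above 6.5 (10.1% beside 5.42%), 7 of 77 above 7.5 (9.09% beside 7.24%), 6 of 126 with both group means above 7 (4.76% beside 5.66%) and 8 of 33 with the filter (24.2% beside 11.1%). The 6 lower genes became 0 with arrays centred (2.04% of all genes), 2 with the trend of signal level removed (2.93%), 21 with a mean above 6.5 (8.14% beside 9.42%), 1 above 7.5 (1.30% beside 2.12%), 3 with both group means above 7 (2.38% beside 4.30%) and 0 with the filter (1.65%). With 1 pool left out the counts ran from 7 (without large pool 3) to 15 for higher and from 2 (without large pool 3) to 5 for lower genes, with 3 lower genes without large pool 2, small pool 6 or small pool 7. The median of the set less that of all genes, 0.065, was 0.13 with no level minimum for the genes fitted, -0.040 with the filter and 0.024 (without small pool 5) to 0.089 with 1 pool left out. It was 0.028 without large pool 3 and 0.040 without small pool 6. The promoter group of 13 genes, whose alternatives were chosen after seeing the data, had a median of 0.23 to 0.34 under the 3 scalings, 0.16 without its 3 genes at an unadjusted p under 0.05 and 0.15 to 0.48 with 1 pool left out. The cause of these changes was not tested, apart from the fewer or more genes that each limit admits.

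With arrays centred the sign turned for *ZNF646* (0.041), *ZNF148* (0.037) and *ZNF335* (0.011). After a further quantile normalization it turned for *ZNF646* (0.029). With the trend of signal level removed it turned for *ZNF711* (-0.022), *ZNF207* (-0.032), *ZNF646* (0.12), *ZNF24* (0.0042), *ZNF335* (0.071) and *ZNF532* (0.012). With 1 pool left out, values on both sides of 0 were found for *ZNF143* (-0.11 to 0.40), *ZNF148* (-0.23 to 0.14), *ZNF207* (-0.082 to 0.23), *ZNF24* (-0.26 to 0.068), *ZNF410* (-0.50 to 0.15), *ZNF593* (-0.060 to 0.39), *ZNF622* (-0.46 to 1.06), *ZNF638* (-0.32 to 0.084), *ZNF646* (-0.17 to 0.039), *ZNF711* (-0.074 to 0.17), *ZNF830* (-0.11 to 0.26) and *ZNF93* (-0.17 to 0.28). No paired analysis was possible because the large and small pools share no replicate number.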
